A study of Mus musculus with 12 samples.

Results

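The chemokine ligand genes were taken from the deposited expression values by their symbols, as every gene named Ccl or Cxcl followed by its number, with a letter where there is one, together with *Cx3cl1*. Of the 46983 genes with values, 37 met the rule, 23 of the CC family, 13 of the CXC family and *Cx3cl1*. The values come from C2C12, an established line of mouse myoblasts that can fuse into myotubes. The study's methods name a single culture medium, which held fetal bovine serum and the cytokine LIF. They describe no change of medium for differentiation. WT cells were the PB-IP vector group, and PPARγ/+ cells had the PPARγ coding sequence inserted by the same PiggyBac vector, under puromycin selection. Cells of both kinds were sampled before differentiation began (0d) and 5 days into it (5d), and every one of these 4 groups had 3 libraries, called biological replicates by the study. The study describes stable lines and does not say from how many clones they were grown, so a difference between WT and PPARγ/+ cells cannot be told apart from a difference between lines.

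Chemokines are small secreted proteins that guide the movement of leukocytes and other cells through receptors on the cell surface. CC and CXC chemokines differ in the spacing of their first cysteines, and each receptor binds a handful of ligands. Many of the genes lie in clusters and are switched on through NF-κB when a cell meets interleukin 1, tumour necrosis factor or bacterial products, whereas *Cxcl12* is made steadily by stromal cells and keeps progenitor cells in place. In muscle, regenerating fibres and the cells around them make chemokines that draw in monocytes, and PPARγ is known in macrophages as a repressor of inflammatory genes.

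Levels are given in FPKM, the fragments on a gene scaled by its length and by all fragments mapped in the library, so that genes can be compared by level. Each library held between 15557884 and 22013305 fragments on genes, and the chemokine ligand genes took from 0.0403% to 0.266% of them. *Pparg*, the introduced gene, stood at 7.56, 5.10 and 6.92 FPKM in WT cells on 0d and at 3.12, 3.53 and 4.59 on 5d. Every PPARγ/+ library was higher, at 44.4, 28.0 and 46.4 FPKM on 0d and at 40.1, 44.1 and 92.7 on 5d. The 7 muscle marker genes (*Myod1*, *Myog*, *Des*, *Myh3*, *Acta1*, *Ckm* and *Tnnt3*) summed to between 58.3 and 294 FPKM on 0d and to between 958 and 4230 on 5d. WT_5d replicate 3 stood apart. Its summed level of chemokine ligand genes was the highest of all 12 libraries. Its muscle marker sum, 958 FPKM, was the lowest on 5d. The other WT libraries summed to 4230 and 3244, and the PPARγ/+ ones to between 1032 and 1215. Each of the 7 markers was lower in it than in the other WT libraries of 5d. Against the PPARγ/+ libraries of 5d the markers went both ways. *Acta1* (491 FPKM against 622 to 715) and *Des* were lower in it than in each of them. *Myh3* (87.9 against 42.2 to 56.1), *Tnnt3* and *Ckm* were higher, and *Myog* and *Myod1* lay within their range. Where a call or a size of a chemokine ligand gene turned on this library, the value without it is given too. The same holds for calls of the receptor, pathway and cytokine genes, but not for all marker genes. What part the state of this library plays was not tested.

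Only a small set of the genes carried the signal. Of the 37 genes, 27 were above 0 in at least 1 library, 18 passed the filter for testing (0.1 FPKM in 3 or more of the 12 libraries) and 11 reached a mean of 1 FPKM in some group. *Cxcl12*, *Ccl7*, *Ccl8*, *Cxcl1*, *Cxcl5* and *Cx3cl1* together made up between 84.1% and 95.2% of the summed FPKM in every library. The sum over the 37 genes was 103, 153 and 150 FPKM in the WT libraries on 0d and 193, 325 and 718 on 5d. In PPARγ/+ cells it was 186, 179 and 222 FPKM on 0d and 441, 469 and 505 on 5d. The libraries of the 2 days did not overlap in either kind of cell, and the spread was far wider in WT cells on 5d (412 ± 273 FPKM, SD, n = 3) than in PPARγ/+ cells on 5d (472 ± 32.0, SD, n = 3). In bulk samples such as these, more cells of a type and more RNA per cell cannot be told apart.

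**Figure D1:**
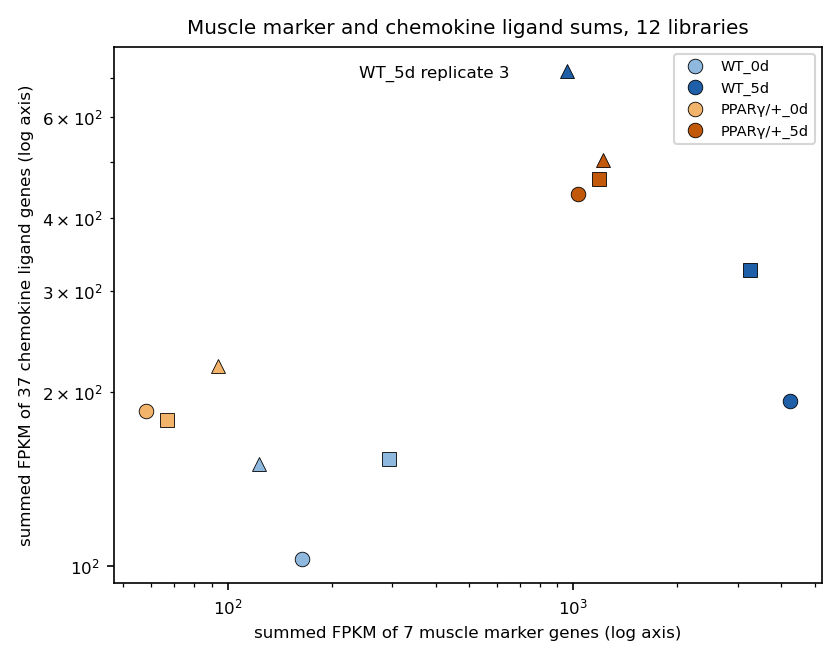
Summed FPKM of the 37 chemokine ligand genes (vertical log axis) against the summed FPKM of 7 muscle marker genes (horizontal log axis), 1 point per library, colours for the 4 groups and shapes for replicates 1 (circle), 2 (square) and 3 (triangle). WT_5d replicate 3 lies highest, at 718 FPKM of chemokine ligand genes and 958 of muscle markers, to the left of the other WT libraries on 5d.

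Changes were tested with limma on log2(FPKM + 0.1) over all 18023 genes that passed the filter. Within WT or PPARγ/+ cells a gene was called between 0d and 5d by the thresholds of the study, 2-fold and an unadjusted p of 0.05, and the adjusted p-values printed are those of limma after Benjamini-Hochberg adjustment over all genes tested. In WT cells 9 of the 18 chemokine ligand genes tested were called higher on 5d, and none lower, against 8.94% of all genes called higher and 7.53% called lower. In PPARγ/+ cells 10 of 18 were called higher and none lower, against 9.11% and 6.06% of all genes. Over the 18 genes the log2 fold changes had a median of 1.14 for WT and of 1.36 for PPARγ/+ cells, beside −0.08 and −0.10 over all genes tested. The 18 passed a filter that a gene high on a single day can pass, so these counts and medians describe the genes and support nothing by themselves. Called in both kinds of cell were *Ccl7*, *Ccl8*, *Ccl11*, *Cxcl12*, *Cxcl15* and *Cx3cl1*. Without WT_5d replicate 3, 7 were called in WT cells, where *Ccl7*, *Cxcl15* and *Cx3cl1* no longer passed and *Cxcl13* did.

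**Figure D2:**
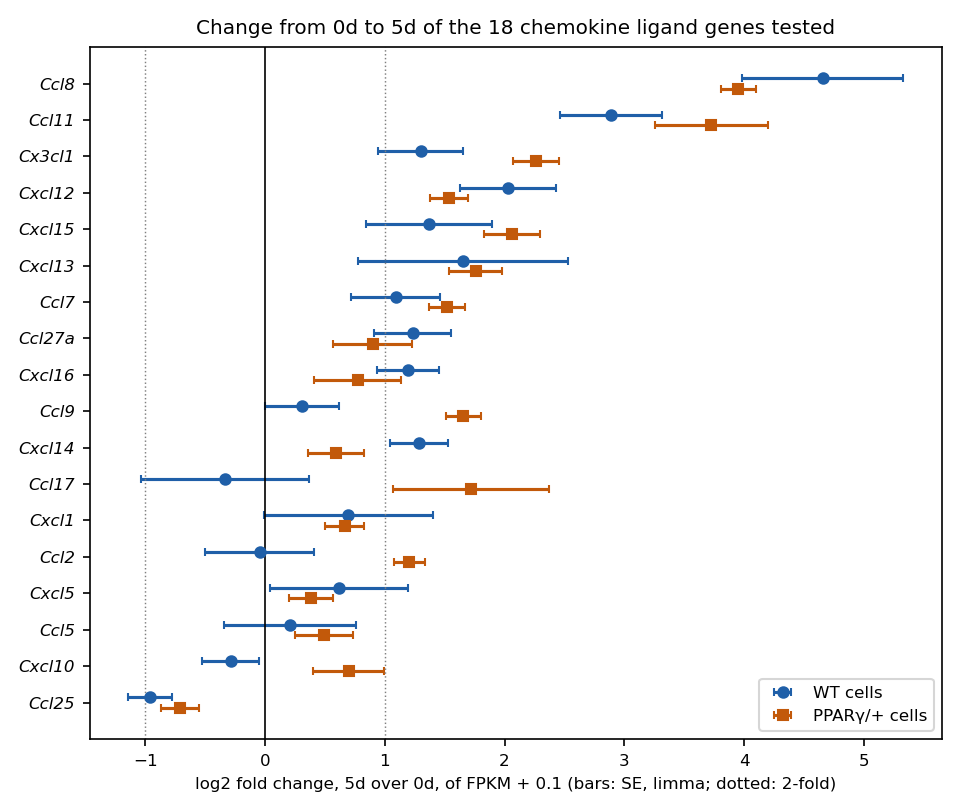
Log2 fold change of FPKM + 0.1 from 0d to 5d (horizontal axis, bars are the standard error from limma) of the 18 chemokine ligand genes tested, in WT cells (circles) and PPARγ/+ cells (squares), with dotted lines at 2-fold. *Ccl8* lies furthest to the right (4.66 and 3.95) and *Ccl25* furthest to the left (−0.96 and −0.71).

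Among the genes of the monocyte chemoattractant proteins and eotaxin were those with the largest changes of all 18. *Ccl8*, which encodes a protein of the monocyte chemoattractant group that in the mouse binds CCR8, stood at 1.92, 4.03 and 1.61 FPKM in the WT libraries on 0d and at 28.1, 49.3 and 164 on 5d. The PPARγ/+ libraries held it at 3.29, 2.48 and 2.96 FPKM on 0d and at 46.1, 54.1 and 39.5 on 5d. Every library of 5d was above every library of 0d, and WT_5d replicate 3 was far above all others. The mean FPKM was 31.9-fold higher on 5d in WT cells (log2 fold change 4.66, standard error 0.67, adjusted p = 0.00303) and 16.0-fold higher in PPARγ/+ cells (3.95, standard error 0.14, adjusted p = 1.60e-05). Without WT_5d replicate 3 the log2 fold change in WT cells was 3.95.

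*Ccl11*, the gene of eotaxin, which attracts eosinophils, rose from 0.191, 0.843 and 0.479 FPKM to 4.32, 3.16 and 4.34 in WT cells. In PPARγ/+ cells it rose from 0.568, 0.142 and 0.0847 FPKM to 3.79, 3.40 and 4.97. On 5d the 6 libraries of both kinds of cell overlapped and lay between 3.16 and 4.97 FPKM. On the log2 scale the rise came to 2.89 ± 0.43 (standard error) in WT cells, at an adjusted p = 0.00333, and to 3.73 ± 0.47 in PPARγ/+ cells, at an adjusted p = 8.77e-04, and the 2 to 23 fragments in a library of 0d limit its precision.

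*Ccl7*, another monocyte chemoattractant, was already at 17.1, 24.0 and 32.6 FPKM in WT cells on 0d and at 35.3, 43.5 and 85.1 on 5d. It went from 30.0, 19.7 and 21.6 FPKM to 67.2, 67.4 and 67.1 in PPARγ/+ cells. The libraries of the 2 days did not overlap in either kind of cell, but those of WT cells came close, at 32.6 and 35.3 FPKM. Its log2 fold change was 1.52 in PPARγ/+ cells (standard error 0.15, adjusted p = 3.12e-04) and 1.09 in WT cells (standard error 0.37, adjusted p = 0.0616). The call in WT cells was lost without WT_5d replicate 3 (0.72), WT_0d replicate 1 (0.86) or WT_0d replicate 2 (1.10).

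*Ccl2*, the gene of the main ligand of CCR2 on monocytes, was called in PPARγ/+ cells. In WT cells it stood at 9.65, 14.1 and 19.9 FPKM on 0d and at 8.28, 11.5 and 26.0 on 5d, and the libraries of the 2 days overlapped. In PPARγ/+ cells it stood at 9.15, 7.11 and 7.97 FPKM on 0d and at 17.3, 17.0 and 22.1 on 5d, with no overlap. Its log2 fold change in WT cells was −0.04 (95% interval −1.14 to 1.06), or −0.51 without WT_5d replicate 3, and 1.21 in PPARγ/+ cells (standard error 0.13, adjusted p = 4.94e-04).

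These genes lie side by side on chromosome 11 of the mouse genome GRCm38, from 82035571 to 82116799, in the order *Ccl2*, *Ccl7*, *Ccl11*, *Ccl12*, *Ccl8*. *Ccl12*, the mouse gene of a further CCR2 ligand, lies 11.8 kb before *Ccl8* on the same strand and held 1 fragment in all 12 libraries together. The RefSeq promoters of this pair, from 250 bases before the start of transcription to 50 after it, are shown because these neighbours lay far apart in level. The capitals mark CAGCTG, a form of the E-box that myogenic factors such as MyoD bind, which reads the same on both strands and occurs once in each. It occurs in 16.4% of 32544 different RefSeq promoters of this length, and the match is a description of the letters only. The first is the promoter of *Ccl8* (chr11:82114935-82115234, plus strand) and the other that of *Ccl12* (chr11:82101595-82101894, plus strand).
Ccl8: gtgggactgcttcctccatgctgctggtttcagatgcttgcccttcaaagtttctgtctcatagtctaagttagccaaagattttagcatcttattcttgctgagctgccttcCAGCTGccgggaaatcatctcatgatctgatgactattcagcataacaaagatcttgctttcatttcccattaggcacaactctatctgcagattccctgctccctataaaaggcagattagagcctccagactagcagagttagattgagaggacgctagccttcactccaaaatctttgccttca
Ccl12: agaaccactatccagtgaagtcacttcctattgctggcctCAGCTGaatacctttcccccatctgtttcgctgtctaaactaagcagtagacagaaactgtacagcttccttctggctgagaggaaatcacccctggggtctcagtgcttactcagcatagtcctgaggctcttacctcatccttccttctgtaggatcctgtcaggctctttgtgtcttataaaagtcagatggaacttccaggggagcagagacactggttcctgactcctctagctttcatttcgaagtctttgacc

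**Figure D3:**
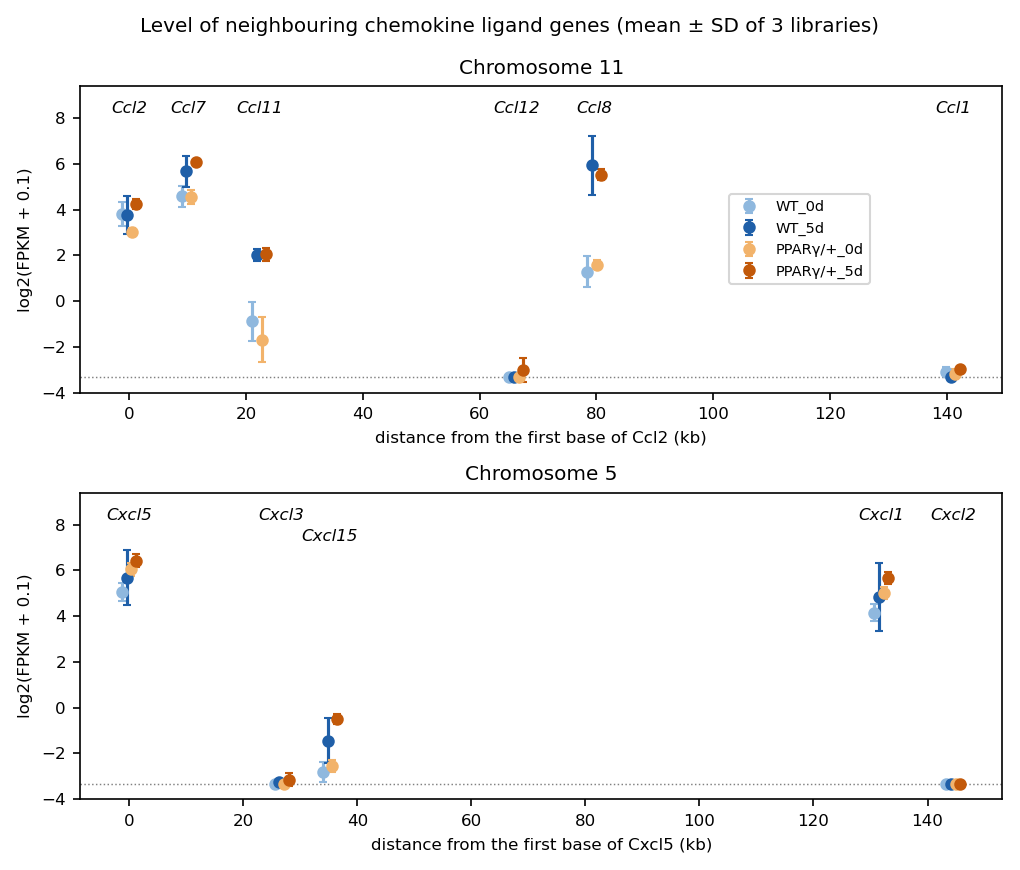
Level of neighbouring chemokine ligand genes on chromosomes 11 and 5, as log2(FPKM + 0.1) on the vertical axis against the distance in kb from the first base of the first gene, with the mean and SD of the 3 libraries of a group. *Ccl12*, *Ccl1*, *Cxcl3* and *Cxcl2* lie at or near the dotted line that marks an FPKM of 0, between or beside genes at several log2 units more.

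Of the genes of ligands of CXCR2, the receptor that guides neutrophils, *Cxcl5* and *Cxcl1* were already high on 0d. *Cxcl5* stood at 24.2, 39.4 and 38.6 FPKM in WT cells on 0d and at 24.3, 43.9 and 125 on 5d, and in PPARγ/+ cells at 52.5, 68.5 and 78.7 on 0d and 71.6, 84.6 and 104 on 5d. *Cxcl1* stood at 13.5, 18.1 and 22.3 FPKM and then at 11.6, 22.6 and 88.9 in WT cells, and at 26.7, 33.3 and 37.1 and then at 45.1, 46.9 and 62.4 in PPARγ/+ cells. In WT cells the days overlapped for both genes, and WT_5d replicate 3 lay far above every other WT library. Neither gene was called between the days. The log2 fold change of *Cxcl1* was 0.70 in WT cells (95% interval −0.997 to 2.39), and −0.12 without WT_5d replicate 3. The value in PPARγ/+ cells was 0.67 (standard error 0.16, adjusted p = 0.0142), short of 2-fold, with no overlap between the days. For *Cxcl5* the log2 fold changes were 0.62 (95% interval −0.77 to 2.01) in WT cells, or −0.03 without WT_5d replicate 3, and 0.39 (95% interval −0.06 to 0.83) in PPARγ/+ cells.

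*Cxcl15*, the gene of lungkine, a neutrophil attractant best known from lung epithelium, lay far lower, with at most 34 fragments in a library. It rose from 0, 0.0559 and 0.0812 FPKM to 0.0923, 0.244 and 0.640 in WT cells (log2 fold change 1.37, standard error 0.53, adjusted p = 0.0873). The rise in PPARγ/+ cells was from 0.0385, 0.0902 and 0.0861 FPKM to 0.521, 0.743 and 0.582 (2.06, standard error 0.23, adjusted p = 5.36e-04). The days did not overlap, but in WT cells they came close, at 0.0812 and 0.0923 FPKM. The call in WT cells was lost when any library other than WT_5d replicate 1 was left out, with log2 fold changes of 0.86 without WT_5d replicate 3 and of 1.12, 1.44, 1.55 and 1.42 without WT_0d replicates 1, 2 and 3 and WT_5d replicate 2.

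*Cxcl5*, *Cxcl3*, *Cxcl15*, *Cxcl1* and *Cxcl2* lie in this order on chromosome 5 between 90759360 and 90905938. *Cxcl2*, 10.8 kb beyond *Cxcl1*, was at 0 in all 12 libraries, and *Cxcl3*, whose product also binds CXCR2, held 1 fragment in a WT library and 3 in a PPARγ/+ library, both on 5d. Whether the counting dropped reads of *Cxcl2* cannot be seen from FPKM values. The promoters of *Cxcl1* (chr5:90890995-90891294), *Cxcl2* (chr5:90903649-90903948) and *Cxcl3* (chr5:90785851-90786150), all on the plus strand, are shown because they share a match to the NF-κB motif while *Cxcl1* was high and the other 2 were at or near 0. The motif was searched on both strands by its consensus and occurs in 8.5% of the 32544 RefSeq promoters and in 8 of the 28 different promoters of chemokine ligand genes (28.6%). In these 3 promoters a match on each strand overlaps the other, and the capitals mark them as a single run, GGGAATTTCCC, which begins 71 bases before the start of transcription in *Cxcl1*, 97 in *Cxcl2* and 73 in *Cxcl3*. The match describes the letters and does not show that NF-κB binds there.
Cxcl1: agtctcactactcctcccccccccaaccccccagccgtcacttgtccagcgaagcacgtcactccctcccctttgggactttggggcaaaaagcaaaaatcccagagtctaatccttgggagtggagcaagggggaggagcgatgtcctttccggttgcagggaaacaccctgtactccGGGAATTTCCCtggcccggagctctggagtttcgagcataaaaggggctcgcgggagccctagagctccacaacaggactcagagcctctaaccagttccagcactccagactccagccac
Cxcl2: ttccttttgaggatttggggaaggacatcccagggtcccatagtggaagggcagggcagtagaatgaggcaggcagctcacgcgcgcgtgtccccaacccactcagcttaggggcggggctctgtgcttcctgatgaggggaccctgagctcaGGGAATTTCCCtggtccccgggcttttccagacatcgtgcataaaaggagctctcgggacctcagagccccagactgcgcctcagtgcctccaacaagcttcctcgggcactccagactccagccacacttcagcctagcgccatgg
Cxcl3: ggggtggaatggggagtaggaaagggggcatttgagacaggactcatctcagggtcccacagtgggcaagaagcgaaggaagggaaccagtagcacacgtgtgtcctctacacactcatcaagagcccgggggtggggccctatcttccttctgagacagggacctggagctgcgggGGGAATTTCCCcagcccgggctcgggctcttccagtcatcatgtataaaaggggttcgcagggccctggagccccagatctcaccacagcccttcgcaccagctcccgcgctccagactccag

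Of the 37 genes, 26 had a RefSeq promoter in the table used. Those without an entry were *Ccl2*, *Ccl4*, *Ccl5*, *Ccl7*, *Ccl11*, *Ccl24*, *Ccl26*, *Cxcl5*, *Cxcl11*, *Cxcl16* and *Cxcl17*. Besides the genes above, the NF-κB motif matched in *Ccl1*, *Ccl9*, *Ccl20*, *Cxcl10* and 1 of the 3 promoters of *Ccl27a*, and none of *Ccl8*, *Cxcl12* and *Cx3cl1* held a match in this window. The E-box CAGCTG occurred in 6 of the 28 promoters (21.4%). The pattern GAAANNGAAA, part of the interferon-stimulated response element, occurred on either strand in 3 of them (10.7%, against 3.4% of all), those of *Ccl19*, *Cxcl10* and *Cxcl14*. The entry of *Ccl21b*, chr4:42172870-42173169, does not lie at the start of the gene measured, which begins at 42255767. It held no match to any of these motifs and is counted among the 26 genes and the 28 promoters.

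*Cxcl12*, the gene of stromal cell-derived factor 1, the ligand of CXCR4, was the most abundant chemokine ligand gene on 5d by mean level. It stood at 25.1, 34.4 and 22.4 FPKM in WT cells on 0d and at 60.1, 120 and 182 on 5d. The PPARγ/+ libraries stood at 49.99, 35.3 and 55.6 FPKM on 0d and at 137, 135 and 130 on 5d. The libraries of 5d lay above those of 0d in both, and on 0d all PPARγ/+ libraries lay above the WT ones, if only just, at 35.3 against 34.4 FPKM for the nearest pair. The log2 fold change from 0d to 5d was 2.03 in WT cells (standard error 0.40, adjusted p = 0.00959; 1.66 without WT_5d replicate 3) and 1.53 in PPARγ/+ cells (standard error 0.16, adjusted p = 3.99e-04).

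*Cxcl13*, the gene of a B cell attractant that binds CXCR5, was low and uneven. It stood at 0.0897, 0.414 and 0.0751 FPKM in WT cells on 0d and at 1.26, 1.71 and 0.115 on 5d, which are 37, 38 and 3 fragments. In PPARγ/+ cells it was at 0 in all libraries of 0d and at 0.252, 0.283 and 0.187 FPKM on 5d, a mean at least 2.21-fold that of 0d by the floor of 3 fragments (adjusted p = 8.80e-04). Here WT_5d replicate 3 was the lowest WT library of 5d and not the highest, and in WT cells *Cxcl13* was not called (log2 fold change 1.65, 95% interval −0.46 to 3.77) unless that library was left out (2.61).

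The fractalkine and CXCL16 genes encode the chemokines that are made as membrane-bound proteins. *Cx3cl1*, the gene of fractalkine, which tethers and attracts cells with the receptor CX3CR1, rose from 8.15, 14.6 and 8.93 FPKM to 16.2, 25.9 and 38.6 in WT cells (log2 fold change 1.30, standard error 0.36, adjusted p = 0.0304). In PPARγ/+ cells it rose from 11.4, 9.59 and 14.9 FPKM to 48.9, 54.0 and 69.8 (2.26, standard error 0.19, adjusted p = 1.74e-04). The days did not overlap, and on 5d each PPARγ/+ library lay above each WT library. Without WT_5d replicate 3 the log2 fold change in WT cells was 0.998, just short of 2-fold. *Cxcl16*, the gene of a scavenger receptor and ligand of CXCR6, was at 0.127 ± 0.0529 FPKM (SD, n = 3) in WT cells on 0d and at 0.411 ± 0.0421 on 5d (log2 fold change 1.20, adjusted p = 0.0130). The level in PPARγ/+ cells was at 0.241 ± 0.146 and 0.443 ± 0.0511 FPKM and it was not called (0.78, 95% interval −0.10 to 1.65) unless PPARγ/+_0d replicate 2 was left out (1.06). Its exons share 552 bp with *Zmynd15* on the other strand, a gene at 0.110 FPKM or less, and the call in WT cells was lost without WT_0d replicate 1 (0.99).

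*Ccl9*, the gene of a macrophage inflammatory protein that attracts monocytes, rose in PPARγ/+ cells. It stood there at 0.471, 0.491 and 0.526 FPKM on 0d and at 1.54, 1.85 and 1.98 on 5d, 3.60-fold higher by the means (log2 fold change 1.66, standard error 0.15, adjusted p = 2.23e-04). In WT cells it stood at 0.660, 0.755 and 1.35 FPKM on 0d and at 1.44, 0.868 and 1.10 on 5d, with overlap (0.31, 95% interval −0.44 to 1.05). *Ccl5*, the gene of RANTES, lay between 3 and 18 fragments in every library and was not called, with log2 fold changes of 0.21 (95% interval −1.12 to 1.54) and 0.50 (−0.08 to 1.07). *Ccl6* was under the filter, with no fragment in WT cells on 0d, 2 or 3 on 5d, at most 2 in PPARγ/+ cells on 0d and 2, 10 and 4 on 5d, where the mean was at least 2.07-fold that of 0d.

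*Ccl25*, the gene of a thymus and gut chemokine that binds CCR9, was the single gene of the 18 with lower means on 5d in both kinds of cell. It went from 1.74, 1.37 and 1.26 FPKM to 0.750, 0.660 and 0.675 in WT cells and from 1.12, 1.18 and 1.36 to 0.705, 0.819 and 0.605 in PPARγ/+ cells. The days did not overlap. The log2 fold changes, −0.96 (standard error 0.18, adjusted p = 0.00806) and −0.71 (standard error 0.16, adjusted p = 0.0106), were short of 2-fold, and that in WT cells passed it without WT_0d replicate 3 (−1.05) or WT_5d replicate 1 (−1.01). Exons of *Ccl25* share 204 bp with *Elavl1* on the other strand, a gene of up to 12.9 FPKM, and without strand the reads of the pair cannot be told apart.

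The remaining genes that were tested had few fragments. *Cxcl14*, the gene of a chemokine of epithelia, had at most 1 fragment in a library of 0d, 8, 7 and 5 in WT cells on 5d, at least 2.23-fold higher (adjusted p = 0.00802), and 2, 3 and 2 in PPARγ/+ cells. *Ccl27a*, whose product binds CCR10 on skin-homing T cells, had 1, 0 and 0 fragments in WT cells on 0d and 4, 9 and 12 on 5d, at least 2.85-fold higher (adjusted p = 0.0260). In PPARγ/+ cells *Ccl27a* had 2, 5 and 1 and then 5, 7 and 13 fragments, and was not called (log2 fold change 0.90, 95% interval 0.11 to 1.69) unless PPARγ/+_0d replicate 2 (1.07) or PPARγ/+_5d replicate 1 (1.10) was left out. *Ccl27a* and *Ccl27b* are near-identical copies, as are *Ccl21a* and *Ccl21b*, so a read can be lost or split between them, and *Ccl27a* shares 8 bp of exon with *Il11ra1*, a gene of up to 8.49 FPKM on the other strand. *Ccl17*, the gene of a ligand of CCR4 on T cells, had 0, 0 and 2 fragments in PPARγ/+ cells on 0d and 1, 8 and 5 on 5d (adjusted p = 0.0689), a mean at least 1.84-fold that of 0d. The days overlapped, and the call was lost without PPARγ/+_0d replicate 1 (1.48) or 2 (1.48) or PPARγ/+_5d replicate 2 (1.31) or 3 (1.51), as log2 fold changes. *Cxcl10*, an interferon-induced ligand of CXCR3, held at most 7 fragments in any library, shares 133 bp of exon with *Art3* on the other strand and was not called between the days.

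A further 8 genes, *Ccl1*, *Ccl3*, *Ccl4*, *Ccl12*, *Ccl28*, *Cxcl3*, *Cxcl9* and *Cxcl17*, held at most 6 fragments in a library and were not tested. At 0 in all 12 libraries were *Ccl19*, *Ccl20*, *Ccl21a*, *Ccl21b*, *Ccl22*, *Ccl24*, *Ccl26*, *Ccl27b*, *Cxcl2* and *Cxcl11*. The floor of 3 fragments is the level that a count of 0 allows, and levels under it were not detectable at this depth. Reads of these 10 genes may also have been lost in the counting, which FPKM values do not show. The 10 genes at 0 include those of the gut and lymph node chemokines CCL19, CCL20 and CCL21. The 8 genes with at most 6 fragments include those of the macrophage products CCL3 and CCL4.

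**Figure D4:**
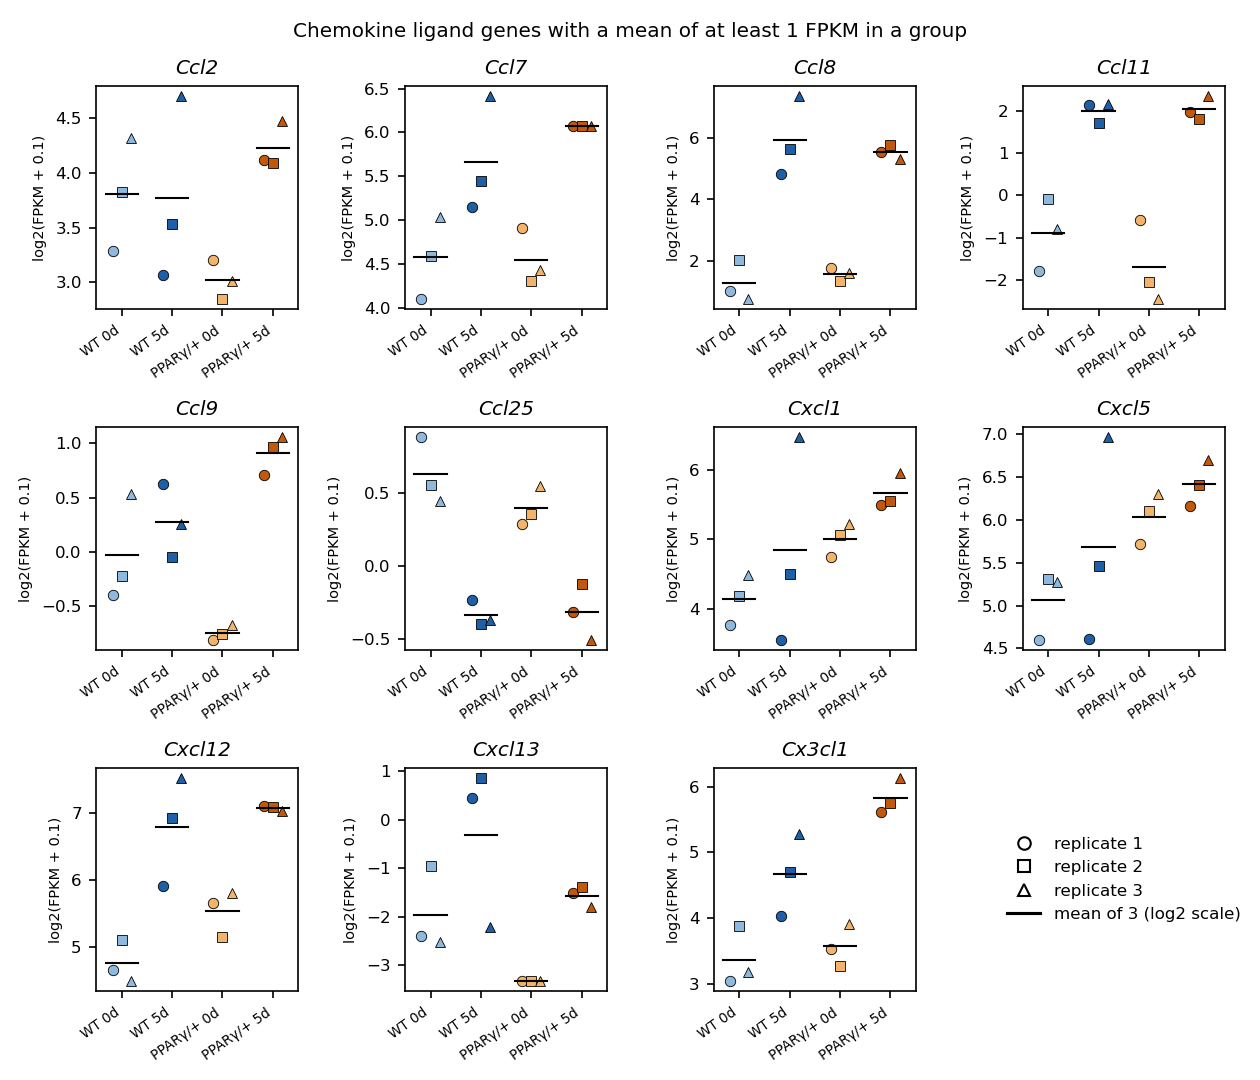
Level of the 11 chemokine ligand genes with a mean of at least 1 FPKM in a group, as log2(FPKM + 0.1), with 1 panel per gene and its own vertical scale, 1 point per library (shape for the replicate number) and a line at the mean of 3. In *Ccl2*, *Ccl7*, *Ccl8*, *Cxcl1*, *Cxcl5* and *Cxcl12* WT_5d replicate 3 is the highest library of all, while the PPARγ/+ libraries of 5d lie close together.

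Whether PPARγ/+ cells differed from WT cells was tested on each day at an adjusted p of 0.05 and 2-fold. On 0d limma called none of the 18 chemokine ligand genes, against 1.59% of all genes tested, with 6 of the 18 at an unadjusted p of 0.05 or less beside 21.7% of all genes, and limma-voom on recovered fragments called none. Of these 6, 1 (*Cxcl13*) also passed 2-fold, beside 3.67% of all genes, and their values went both ways. *Cxcl5* and *Cxcl1* were higher in each PPARγ/+ library than in each WT library, with log2 differences of 0.98 (standard error 0.24, adjusted p = 0.0838) and 0.86 (standard error 0.21, adjusted p = 0.0833), and *Cxcl12* by 0.78 (standard error 0.22, adjusted p = 0.121). *Ccl2*, at 7.11 to 9.15 FPKM against 9.65 to 19.9, was lower in each PPARγ/+ library, with a log2 difference of −0.79 (standard error 0.26, adjusted p = 0.162), and so was *Ccl9* (−0.72, adjusted p = 0.203). *Cxcl13* was at 0 in PPARγ/+ cells and at least 1.77-fold lower (adjusted p = 0.146). That bound rests on WT_0d replicate 2, which held 12 fragments against 2 in each of the other WT libraries of 0d.

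On 5d limma again called none of the 18, against 0.155% of all genes tested, with 4 of the 18 at an unadjusted p of 0.05 or less beside 12.7% of all genes, and none called by limma-voom. Of these 4, *Cx3cl1* and *Cxcl10* also passed 2-fold, beside 3.36% of all genes. *Cx3cl1* was higher in PPARγ/+ cells with a log2 difference of 1.17 (standard error 0.32, adjusted p = 0.250), at 48.9 to 69.8 FPKM against 16.2 to 38.6. *Ccl9* was higher by 0.63 (adjusted p = 0.315), at 1.54 to 1.98 FPKM against 0.868 to 1.44. *Cxcl10*, with 5 to 7 fragments against at most 1, was at least 2.22-fold higher (adjusted p = 0.143), and *Cxcl14*, with 2 or 3 fragments against 5 to 8, at least 2.02-fold lower (adjusted p = 0.275). For the genes that rose most, the differences had wide intervals. The 95% interval ran from −1.94 to 1.13 for *Ccl8* and from −0.67 to 1.24 for *Cxcl12*, while for *Ccl11* it ran from −0.43 to 0.50, which leaves out a 2-fold difference in either direction.

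The comparison on 5d turned on a single library. Without WT_5d replicate 3, 3 of the 18 genes were called and 723 genes in all in place of 28. *Cxcl1* was then higher in PPARγ/+ cells by 1.65 on the log2 scale, *Cx3cl1* was higher by 1.47, and *Cxcl13* was lower by a log2 difference of −2.22. With that library *Cxcl1* differed by 0.83 (95% interval −0.93 to 2.59) and *Cxcl13* by −1.26 (95% interval −3.25 to 0.73).

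An interaction term in a fit to all 12 libraries tested whether the days differed by more or less in PPARγ/+ cells, and is given as their log2 change from 0d less the log2 change of WT cells. None of the 18 genes was called at an adjusted p of 0.05, against 0.760% of all genes tested, and 4 had an unadjusted p of 0.05 or less beside 2164 of the 18023 genes tested, while limma-voom called none. *Ccl9* had an interaction of 1.35 (standard error 0.35, adjusted p = 0.128), *Ccl2* of 1.25 (standard error 0.51, adjusted p = 0.358), *Cxcl10* of 0.98 (adjusted p = 0.349) and *Cx3cl1* of 0.96 (adjusted p = 0.410). All 4 were positive. *Ccl2* was called without WT_5d replicate 3, with an interaction of 1.72. That of *Ccl8* was −0.71 (95% interval −2.32 to 0.91) and 0.01 without the same library.

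Most receptors of these ligands were near 0 in the same libraries. Of 18 chemokine receptor genes 4 were tested and none was called in any of the 5 comparisons with all libraries. *Cxcr4* was called higher on 5d in WT cells without WT_0d replicate 2 (log2 fold change 1.07). *Cxcr6* was called lower on 5d in PPARγ/+ cells without PPARγ/+_0d replicate 3 (−1.04, against −0.78 with all libraries). *Cxcr4*, the receptor of CXCL12, had the highest level and lay between 5.38 and 15.0 FPKM in the 12 libraries, followed by *Ccr10*, the receptor of CCL27 and CCL28, between 0.804 and 1.59. Of 5 atypical receptors, which bind chemokines without the usual signalling, 3 were tested. *Ackr4*, the scavenger of CCL19, CCL21 and CCL25, rose from between 0.0980 and 0.420 FPKM to between 1.17 and 2.02 in WT cells (log2 fold change 2.45, adjusted p = 0.00671) and from between 0.233 and 0.338 to between 4.39 and 5.56 in PPARγ/+ cells (3.73, adjusted p = 2.21e-05). Between the kinds of cell on 5d *Ackr4* was not called (log2 difference 1.70) unless WT_5d replicate 3 was left out (1.94, adjusted p = 0.00706). *Ackr3*, the second receptor of CXCL12, stood at 12.1, 16.5 and 7.61 FPKM in WT cells on 0d and at 1.87, 1.95 and 2.86 in PPARγ/+ cells, a log2 difference of −2.34 (adjusted p = 0.0227). On 5d it stood at 8.27, 6.42 and 4.12 FPKM in WT cells and at 5.98, 5.83 and 6.12 in PPARγ/+ cells. From 0d to 5d it rose in PPARγ/+ cells (log2 fold change 1.41, adjusted p = 5.77e-04) and was not called in WT cells (−0.92, 95% interval −1.76 to −0.08) unless WT_0d replicate 3 (−1.21) or WT_5d replicate 1 (−1.14) was left out. The 2 changes differed by an interaction of 2.33 (adjusted p = 0.0299). With 1 library left out, the difference on 0d kept its size (−2.53 to −2.08 where the call was lost) but passed the adjusted threshold in only 1 of 6 cases, and the interaction in 4 of 12.

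The genes upstream of chemokine transcription were taken as further lists. All 14 genes of NF-κB subunits and inhibitors were tested. Called higher on 5d were 2 in WT cells and 3 in PPARγ/+ cells, beside 8.94% and 9.11% of all genes. From 0d to 5d the median log2 fold changes of the 14 were 0.05 (WT) and 0.18 (PPARγ/+). *Bcl3*, a nuclear cofactor of NF-κB, and *Nfkbie*, an inhibitor, rose in both kinds of cell, *Bcl3* by 1.87 (adjusted p = 0.00241) and 1.18 (adjusted p = 0.00809) and *Nfkbie* by 1.11 (adjusted p = 0.00897) and 1.01 (adjusted p = 0.00790) on the log2 scale. The calls of *Nfkbie* were lost without WT_0d replicate 3 (0.91), WT_5d replicate 2 (0.98), PPARγ/+_0d replicate 1 (0.77) or PPARγ/+_5d replicate 2 (0.94), and that of *Bcl3* in PPARγ/+ cells without PPARγ/+_0d replicate 1 (0.96). *Tnfaip3*, the gene of the feedback inhibitor A20, had lower values on 0d with PPARγ/+ than with WT cells (−1.21, adjusted p = 0.0388, and 0.0607 to 0.129 with any 1 of the 6 libraries left out), and rose in PPARγ/+ cells from 0d to 5d (1.22, adjusted p = 6.59e-04). Of 19 receptors and adaptors that induce chemokines 16 were tested, of which 2 rose and 1 fell in WT cells and 1 rose in PPARγ/+ cells, shares near the 8.94% and 9.11% of all genes called higher. *Il1r1*, the signalling receptor of interleukin 1, rose in both, by 1.45 (adjusted p = 0.00219) and 1.76 (adjusted p = 7.94e-05), while its partner *Il1rap* fell in WT cells (−1.03, adjusted p = 0.00705), short of 2-fold without WT_0d replicate 2 (−0.94) or WT_5d replicate 1 (−0.99). *Tlr2*, a receptor of bacterial lipoproteins, rose in WT cells (1.06, adjusted p = 0.0211), short of 2-fold without WT_5d replicate 3 (0.82), and was higher in PPARγ/+ cells on 0d, at 18.3 to 23.1 FPKM against 7.31 to 7.96 (log2 difference 1.43, adjusted p = 0.00497). On 5d it was called higher in PPARγ/+ cells only without WT_5d replicate 3 (1.11, against 0.87 with all libraries). Its interaction was called only without WT_5d replicate 1 (−0.87), and that of *Il6ra*, of the same list, only without WT_5d replicate 3 (0.70, against 0.52 with all libraries).

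Some cytokines and adhesion molecules share inducers with chemokines. Of 17 such genes 10 were tested. From 0d to 5d 4 of them rose in WT cells and 6 in PPARγ/+ cells, beside 8.94% and 9.11% of all genes, and none fell. They passed the same filter, which a gene high on a single day can pass, so the counts only describe these genes. None was called between the kinds of cell on either day, though without WT_5d replicate 3 *Il1b* (−1.61) and *Lif* (−1.34) were called lower in PPARγ/+ cells on 5d. *Il6*, *Lif*, *Vcam1* and *Il1b* rose in both kinds of cell, *Il1b* in PPARγ/+ cells by 1.05 on the log2 scale and short of 2-fold without PPARγ/+_5d replicate 2 (0.93) or 3 (0.95). *Il1b* held no fragment in PPARγ/+ cells on 0d and 2, 6 and 5 on 5d. *Vcam1*, the gene of an adhesion molecule for leukocytes that is also found on myoblasts, rose by 1.54 on the log2 scale in WT cells (adjusted p = 0.0212, and 1.16 without WT_5d replicate 3) and by 2.32 in PPARγ/+ cells (adjusted p = 9.61e-05), and was highest in WT_5d replicate 3 among the WT libraries, at 46.3 FPKM. In the same library *Saa3*, the gene of an acute-phase serum amyloid, stood at 19.2 FPKM against 0.222 and 2.15 in the other WT libraries of 5d, and *Il6* at 0.796 against 0.194 and 0.363. *Nfkbiz*, of the NF-κB list, stood there at 9.68 FPKM against 3.50 and 3.55. *Saa3* and *Nfkbiz* were not called between the days with all libraries, and *Il6* was called in WT cells with that library (log2 fold change 1.47) and without it (1.04). Other genes of these lists were lowest in WT_5d replicate 3 among the WT libraries of 5d. These included *Lif*, at 1.83 FPKM against 6.93 and 5.44, and *Il1b*, at 0.230 against 0.494 and 0.571. *Tnfaip3*, of the NF-κB list, stood there at 2.06 FPKM against 3.45 and 3.44. *Icam1* (log2 fold change 1.32, adjusted p = 0.00381) and *Il33* (1.21, adjusted p = 0.00164) rose in PPARγ/+ cells. There *Icam1* had few fragments, 1, 0 and 0 on 0d and 7, 8 and 10 on 5d. Of 3 chemokines whose names fall outside the rule, 2 were tested, and *Pf4*, the gene of platelet factor 4, rose in WT cells from 0 in all libraries of 0d to 0.109, 0.288 and 0.670 FPKM on 5d (adjusted p = 0.0190).

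Markers of other cells were measured beside the ligands. Of 10 leukocyte markers, *Cd52* was at 0 in every library, and *Ptprc*, which encodes the CD45 antigen of all leukocytes, did not pass 0.00649 FPKM, *Adgre1* 0.0143, *Itgam* 0.0309 and *Laptm5* 0.0121 in any. *Cd68*, *Cd14* and *Lyz2*, which are not made by leukocytes alone, made up nearly all of the list, and the list summed to between 8.34 and 18.7 FPKM, with the highest sum in WT_5d replicate 3. *Lyz2*, the gene of lysozyme, rose on 5d in WT (log2 fold change 1.76, adjusted p = 0.0429, 1.18 without WT_5d replicate 3, and not called without WT_0d replicate 3) and PPARγ/+ cells (1.14, adjusted p = 0.00136), and was higher in PPARγ/+ cells on 0d (1.39, adjusted p = 0.0212, and 0.0562 to 0.0801 with any 1 of the 6 libraries left out). The 5 endothelial markers summed to at most 0.233 FPKM. The 6 adipocyte markers summed to at most 0.0794 FPKM in WT cells, to between 2.90 and 5.04 in PPARγ/+ cells on 0d and to between 13.3 and 67.2 on 5d, most of it *Adipoq* and *Fabp4*. The 5 fibroblast markers summed to between 57.4 and 80.0 FPKM in WT cells on 0d and to 173, 164 and 61.5 on 5d, the last in WT_5d replicate 3. In PPARγ/+ cells they summed to between 15.8 and 29.8 FPKM on 0d and to between 104.5 and 105.1 on 5d. *Col1a1* was the largest part of this sum in every library. Among the WT libraries of 5d, *Col1a1*, *Dpt* and *Lum* were lowest in WT_5d replicate 3. *Pdgfra* was highest there, at 13.2 FPKM against 7.04 and 10.3. On 0d *Pdgfra* was higher in each PPARγ/+ library (5.26 to 6.20 FPKM) than in each WT library (3.69 to 4.28), unlike the sum. The part of these other programmes in the chemokine values was not tested.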

How the data were processed

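RNA-seq libraries of C2C12 cells were made with a TruSeq RNA kit of a version that does not mark strand, 3 for each combination of WT or PPARγ/+ cells and 0d or 5d. Per the study's methods, Trim Galore served the authors to trim reads and STAR to align them to the Ensembl mouse genome GRCm38, and they deposited FPKM values from counts per gene by HTSeq, 1 column per library. The submitters' processing notes name mm9 instead, and the strand setting of the counting is not given in the sources used here. The authors also deposited log2(FPKM + 1), which held the same values and was only checked against them. FPKM carry no counts, so fragments were recovered for all but 1 gene above 0 as whole numbers within 0.02 (from annotated lengths for 21320 genes and inferred lengths for 5817), and served for floors (3 fragments, counting error only) and for limma-voom. The main test was limma 3.58.1 with trend in R 4.3.3, on log2(FPKM + 0.1), for genes at 0.1 FPKM or more in 3 or more libraries, with only the compared groups in each fit. Fold changes on this scale understate the changes of low genes. The method was tested on simulated data. With 3 libraries a group, an exact permutation test of 1 gene cannot go below p = 0.1. No 2 libraries held the same values. The labels do not say that libraries came from separate cultures, and p-values measure the spread between these libraries.

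Promoters came from RefSeq (GRCm38.p6), and gene positions are those of the annotation of GRCm38. Genes with a mean of 0.1 FPKM or more in a group or called in a comparison were named with values, those at 1 FPKM or more with the value in each library, and of the pathway lists at most 4 called genes for each comparison, while marker lists are given mainly by their sums. The chemokine ligand genes, the other lists and the tests were chosen with earlier results of these data known. Alternatives in pseudocount, filter, scaling, test, threshold, libraries and replicate block were run, and the closing section gives their effect. Leaving out libraries for the genes of the other lists was chosen after seeing the data. Python 3.11.15 with pandas 2.3.3, numpy 2.4.6 and matplotlib 3.10.9 and bedtools 2.31.1 were used for tables, figures and exon overlaps.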

Additional observations from a re-analysis of the deposited data

How the results depend on the processing

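In WT cells from 0d to 5d, where 9 chemokine ligand genes were called, 5 were called with a pseudocount of 1 and 5 with a filter at 1 FPKM, which left 10 of them to test. In PPARγ/+ cells 6 were called in place of 10 with a pseudocount of 1. The other alternatives gave 7 to 10 and 7 to 14, and limma-voom on recovered fragments called 9 and 14. For PPARγ/+ against WT cells none was called on 0d, but 1 (*Cxcl13*) with a pseudocount of 0.01 and 1 with an unadjusted p (3.67% of all genes). On 5d 2 were called with an unadjusted p (*Cx3cl1* and *Cxcl10*, beside 3.36% of all genes), and for the interaction 4 (*Ccl2*, *Ccl9*, *Cx3cl1* and *Cxcl10*, beside 2164 of the 18023 genes). With each library left out in turn, the counts ran from 6 to 10 in WT cells, from 9 to 11 in PPARγ/+ cells, from 0 to 0 on 0d, from 0 to 3 on 5d and from 0 to 1 for the interaction. The 3 on 5d and the 1 of the interaction came without WT_5d replicate 3, and the cause was not tested. No value changed direction while called. Of the values of single genes under these alternatives, 1345 kept their side of the threshold, 28 lost a call and 27 gained one.

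Replicate numbers did not pair the libraries. Deviations from the group means correlated between −0.068 and 0.083 in 18 pairs of the same number (mean 0.009). With the replicate block, 10 chemokine ligand genes were called in WT and 10 in PPARγ/+ cells and none elsewhere, while over all genes the calls fell from 287 to 0 on 0d, from 28 to 0 on 5d and from 137 to 61 for the interaction. On 5d, 199 genes were called with all 12 libraries in a single fit.

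Median-ratio scaling moved the median log2 change of all genes from −0.081 to 0.023 in WT cells and from −0.095 to 0.021 in PPARγ/+ cells, and called the same 9 and 10 chemokine ligand genes. Depth limits the genes with few fragments, where a single fragment moves the value, and says nothing of levels under the floor.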
